A study of Mus musculus with 6 samples.

Results

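The genes described here encode 6 integrin subunits (Itga5, Itgav, Itga3, Itga6, Itgb1 and Itgb5), fibronectin (Fn1) and 3 laminin chains (Lama5, Lamb1 and Lamc1), measured in the brain of mouse embryos. They were found by their annotated symbol, which gave 29 of the 20380 probe sets that name 1 gene, and 10 of 12393 genes. On the probe set used, all 10 averaged a signal of 100 or more, the limit for entering the fit, which 8627 genes reached in all. Itga5 was chosen for its difference between the groups, with the other genes chosen as its partners and ligands, so the differences of these genes between the groups are given as a description and are not tested.

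Integrins are membrane receptors made of an alpha and a beta subunit that tie the cytoskeleton to the extracellular matrix. Itga5 pairs with Itgb1 to form the main fibronectin receptor, Itgav pairs with Itgb1, Itgb5 and other beta subunits to bind fibronectin and vitronectin, and Itga3 and Itga6 pair with Itgb1 to bind laminins. Laminins are trimers of an alpha, a beta and a gamma chain and form the sheet of the basement membrane. In the embryonic brain that sheet lies at the pial surface, where the end feet of radial glia attach, and around vessels, while fibronectin is abundant in mesenchyme and around growing vessels.

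The promoters of Itga5 and Itgb1 are shown because their products form the receptor pair that the results turn on. Each runs from 250 bases before to 50 bases after the gene's start in RefSeq (GRCm38.p6), at chr15:103366742-103367041 on the minus strand for Itga5 and chr8:128685404-128685703 on the plus strand for Itgb1. Capitals mark the GC box, GGGCGG on either strand.
Itga5: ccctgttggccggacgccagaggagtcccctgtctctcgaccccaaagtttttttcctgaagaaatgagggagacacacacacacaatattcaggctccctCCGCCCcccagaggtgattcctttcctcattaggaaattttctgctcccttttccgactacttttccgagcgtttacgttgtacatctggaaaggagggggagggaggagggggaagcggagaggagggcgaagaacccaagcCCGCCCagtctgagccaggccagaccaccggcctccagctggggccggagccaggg
Itgb1: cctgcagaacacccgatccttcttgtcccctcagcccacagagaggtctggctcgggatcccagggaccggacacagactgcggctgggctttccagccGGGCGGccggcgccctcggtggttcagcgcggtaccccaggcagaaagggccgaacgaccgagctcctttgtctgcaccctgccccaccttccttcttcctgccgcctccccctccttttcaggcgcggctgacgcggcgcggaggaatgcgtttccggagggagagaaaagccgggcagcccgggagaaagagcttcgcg
The GC box, a motif of broadly active promoters, stood at 2 places for Itga5 and 1 for Itgb1, and 35.7% of 32851 promoters in the table hold it. Of the 10 genes, 7 had a promoter in the table, with 8 entries, and all 8 held a GC box. Neither printed window held the letters TATAAA (13.6% of promoters), CCAAT (37.4%), TGANTCA (7.81%) or ACGTG (19.6%), each searched on both strands. The G and C content was 58.7% for Itga5 and 67.3% for Itgb1, against a median of 52.7% over all promoters.

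The data set holds 6 Affymetrix arrays, each of the brain of a Swiss albino mouse embryo at stage E11.5, with E counting days of embryonic life. In the diabetic group, 3 malformed brains came from mothers with diabetes induced by streptozotocin, which destroys pancreatic beta cells, and in the control group 3 brains came from normal mothers. The effects of the mother's diabetes and of the malformation cannot be told apart, and the labels do not say whether embryos shared a litter, so p-values measure only the spread between these brains. Diabetic and control replicates 1 and 2 were run on the MOE430A chip and form the first table, and replicate 3 of each group was run on Mouse430A_2 and forms the second, so differences were taken within tables. Median signals were 173 to 227 on diabetic and 165 to 222 on control arrays, and limma's array weights ran from 0.64 for diabetic replicate 2 to 2.09 for control replicate 2. The brain label was borne out by its markers: Sox2, a neural progenitor factor, had signals of 1991 to 2992 on diabetic and 1670 to 2907 on control arrays, and Tubb3, the neuronal tubulin, had 959 to 2805 on diabetic and 1640 to 1802 on control arrays. Over all genes, limma called 0 of 8627 at an adjusted p under 0.05 (0%), with 659 at an unadjusted p under 0.05 (7.64%), and 0 of the 10 genes passed the adjustment.

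Itga5, the alpha subunit of the fibronectin receptor, was the gene of the 10 with the largest difference. Its signals were 317, 345 and 97.0 on diabetic replicates 1 to 3, against 152, 181 and 60.8 on control replicates 1 to 3. Within each table every diabetic array lay above every control array, and both arrays of the second table were low. The log2 change was 0.74 ± 0.16 (SE, n = 3 per group), 0.87 within the first table and 0.47 within the second. Its other probe set, 1423268_at, had signals of 252, 187 and 44.6 on diabetic arrays and 115, 182 and 17.7 on control arrays. There too the groups did not overlap within a table, though diabetic replicate 2 and control replicate 2 were close, and the changes by table were 0.49 and 0.62. The suffix of the probe set used, 1423267_s_at, marks probes that several transcripts can share. As single arrays were left out, the change ran from 0.64 to 0.87, with 0.67 without diabetic replicate 2, the array of lowest weight.

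**Figure D1:**
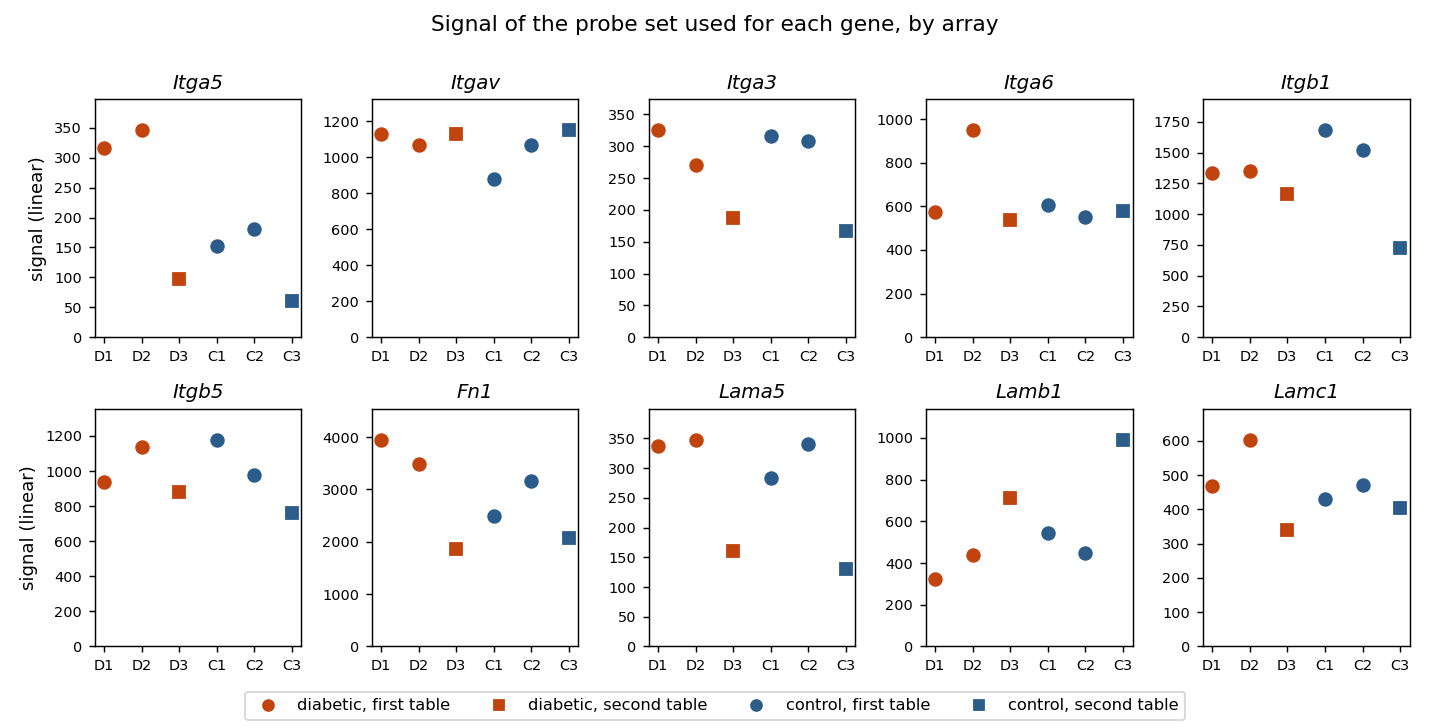
Linear signal of the probe set used for each of the 10 genes (vertical axis, starting at 0) on diabetic replicates D1 to D3 and control replicates C1 to C3, circles for the first table and squares for the second. Itga5 is higher on the diabetic arrays of each table and Lamb1 is lower, while the groups of the other 8 genes overlap in at least 1 table or change sides between tables.

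The other alpha subunits had smaller changes. Itgav, the subunit of vitronectin receptors, had signals of 1127, 1070 and 1127 on diabetic arrays and 880, 1069 and 1149 on control arrays, its log2 change being 0.11 ± 0.16 (SE, n = 3 per group). Its lowest array was control replicate 1, without which the change was 0.010, diabetic replicate 2 and control replicate 2 were level, and in the second table the diabetic array was the lower. Itga3, a laminin receptor subunit, had 325, 270 and 187 on diabetic and 315, 308 and 166 on control arrays, with a change of 0.0035 ± 0.16. Its arrays were set apart by table rather than by group, and the change was -0.065 without either array of the second table and -0.045 without diabetic replicate 1. Itga6, which also serves laminin receptors and is a marker of progenitors in several tissues, had 575, 948 and 539 on diabetic and 607, 553 and 581 on control arrays, with a change of 0.19 ± 0.21. Diabetic replicate 2 stood above the other arrays for Itga6, on its other probe set 1422444_at as well (533 against 369 to 501 on the other arrays). Without that array the change of Itga6 was -0.050.

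On the probe sets used, the beta subunits did not follow Itga5 in the first table. In the second table both were higher on the diabetic array, as Itga5 was. Itgb1, the partner shared by Itga5, Itga3, Itga6 and Itgav, had signals of 1334, 1351 and 1166 on diabetic arrays and 1679, 1519 and 725 on control arrays. The diabetic arrays were lower than the control arrays in the first table but higher in the second, with log2 changes of -0.25 and 0.66 and a value over both tables of 0.057 ± 0.20 (SE, n = 3 per group). Its only other probe set that averaged 100 or more, 1426918_at, had -0.16 and 0.51, the same pattern of signs. Without either array of the second table the change of Itgb1 was -0.25. Itgb5, a partner of Itgav, had 937, 1137 and 880 on diabetic and 1178, 977 and 759 on control arrays, a change of 0.032 ± 0.17 with overlap in the first table. Its 3 other probe sets had changes of -0.15, 0.26 and 0.033, so even the sign differed among probe sets of Itgb5, and on the probe set used it was -0.054 without either array of the second table, -0.021 without diabetic replicate 2 and -0.018 without control replicate 2.

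Fn1, the ligand of the Itga5 and Itgb1 receptor, was bright on every array. The signals were 3948, 3488 and 1868 on diabetic arrays and 2495, 3160 and 2070 on control arrays. The diabetic arrays lay above the control arrays in the first table but below in the second, with log2 changes of 0.40 and -0.15, and the value over both was 0.22 ± 0.18 (SE, n = 3 per group). The second probe set of Fn1, 1437218_at, had 231, 220 and 231 on diabetic and 151, 243 and 373 on control arrays. It kept the pattern of signs, with 0.20 and -0.63, and its value over both tables was -0.077. Without control replicate 1 the change of Fn1 on the probe set used was 0.069.

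Among the laminin chains, on the probe sets used, Lamb1 was lower on the diabetic arrays and Lama5 and Lamc1 lay nearer 0. Lamb1, a beta chain of basement membrane laminins, had signals of 323, 440 and 712 on diabetic arrays and 542, 447 and 991 on control arrays. The diabetic arrays lay below the control arrays of their table, with a narrow gap between diabetic replicate 2 and control replicate 2, and the log2 change was -0.39 ± 0.17 (SE, n = 3 per group). The probe sets of Lamb1 disagreed: 1424113_at had -0.27, while 1451241_at had 0.24, with signals of 276, 262 and 182 on diabetic and 217, 212 and 163 on control arrays, all higher on the diabetic side of a table. A direction for Lamb1 therefore depends on the probe set, and with the mean of its 3 probe sets the change was -0.14. Lama5, an alpha chain, had 338, 348 and 161 on diabetic and 283, 340 and 130 on control arrays, a change of 0.17 ± 0.15, against -0.30 for its other probe set. Lamc1, the gamma chain that most laminins contain, had 468, 603 and 340 on diabetic and 429, 471 and 403 on control arrays, a change of 0.075 ± 0.18. The highest signal of Lamc1 was on diabetic replicate 2, and the change was -0.067 without that array and -0.0034 without control replicate 1. With the mean of its probe sets, of which 1423886_at had signals of 28.4, 25.3 and 118 on diabetic and 21.3, 19.5 and 12.4 on control arrays, the change of Lamc1 was 0.39.

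**Figure D2:**
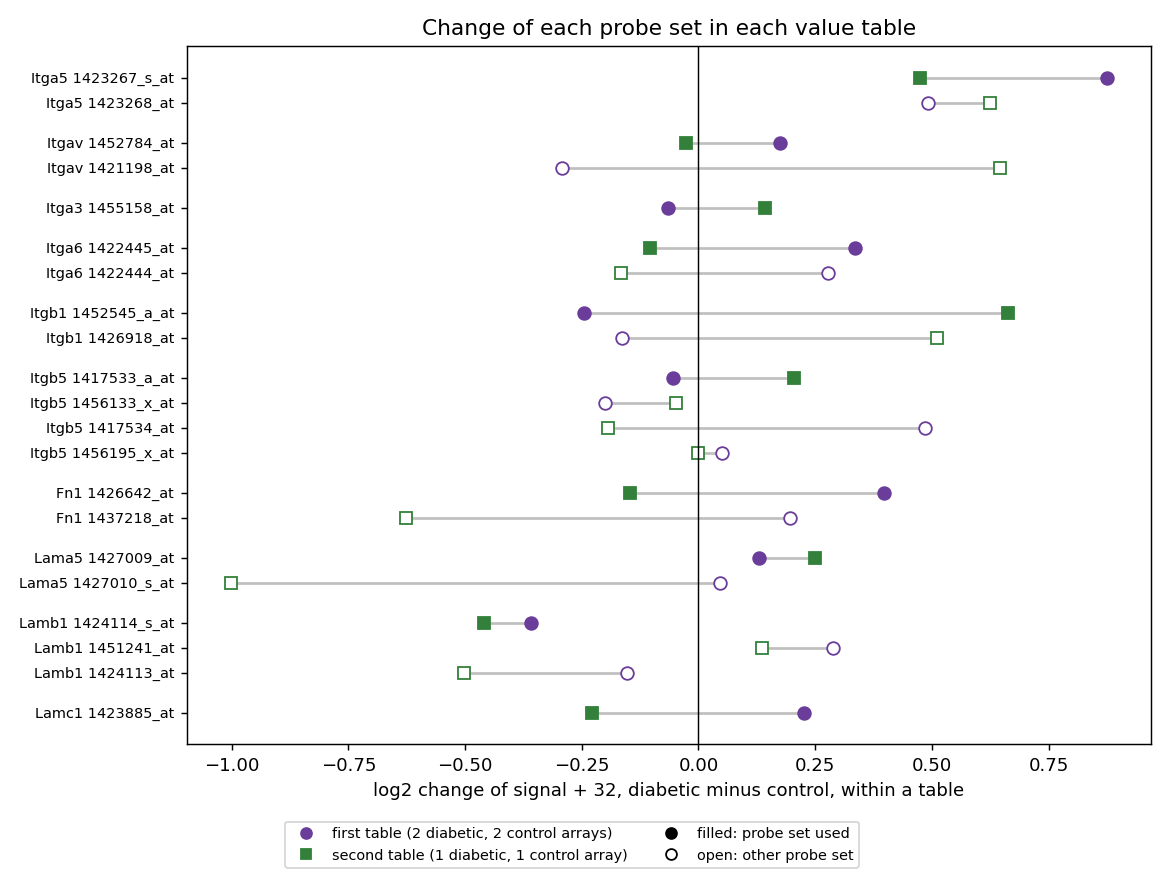
Log2 change of signal + 32, diabetic minus control, for the 21 probe sets of the 10 genes that averaged a signal of 100 or more, circles for the first table and squares for the second, filled for the probe set used. Both Itga5 probe sets lie above 0 in both tables, and the Lamb1 probe sets lie on both sides of 0. Itgb1, Fn1, Itga6, Itgav, Itga3 and Lamc1 change sign between tables on every probe set shown, which is 1 each for Itga3 and Lamc1.

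Seen as a group, the 10 genes did not move as a block. The log2 change was above 0 for 9 of 10 genes, against 52.2% of all genes tested, with a median of 0.091 against 0.012 over all genes, and 5 of these 9 had values between 0.0035 and 0.11. The sign was the same in both tables for 3 of 10 genes, Itga5, Lama5 and Lamb1, against 51.5% of all genes. Diabetic arrays lay above the control arrays of their table for 1 of 10 genes (background 11.3%) and below for 1 (background 10.6%). At an unadjusted p under 0.05 stood 2 of 10, against 7.64%. These counts use the contrast that the genes were chosen on and are not read further. Of the 29 probe sets, 21 averaged a signal of 100 or more. Among these, the 11 that were not used had, over both tables, the opposite sign to the one used in 4 cases, 1 each for Itgb5, Fn1, Lama5 and Lamb1. Single tables can differ further, as for Itgav.

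The tables, which differ in chip and scanner and which the choice of the genes did not use, separated each of the 10 genes more widely than the group change over both tables. In a single table the group change was the wider for Itgav (0.17, first table), Itga6 (0.34, first table, against -0.22 between tables) and Itgb1 (0.66, second table). Second minus first table, with the group in the fit, Itga5 had a log2 difference of -1.29, Lama5 -1.02, Fn1 -0.71, Itga3 -0.69 and Itgb1 -0.65, against a median of -0.18 over all genes tested. That median takes in genes of every signal level. Of the genes tested, 80.8% had a higher mean signal than Itga5, 71.1% than Lama5 and 71.7% than Itga3. Whether the table difference depends on signal level was not tested. Lamb1 was 0.91 higher in the second table and Itgav 0.14 higher. Within the first table, the gap between diabetic replicates 1 and 2 was 0.11 for Itga5 and 0.018 for Itgb1, against 0.69 for Itga6 and a median of 0.21 over all genes, and the gap between control replicates 1 and 2 was 0.21 for Itga5, 0.14 for Itgb1 and 0.34 for Fn1, with a median of 0.20 over all genes.

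Set against its partner and its ligand on the same array, Itga5 differed between tables in one case and not in the other. The log2 ratio of Itga5 to Itgb1 signal was -1.97, -1.87 and -3.22 on diabetic replicates 1 to 3, and -3.22, -2.86 and -3.03 on control replicates 1 to 3. Diabetic replicates 1 and 2 were higher than the other 4 arrays, and diabetic replicate 3 was at the level of the controls. The change in this ratio was 1.12 within the first table but -0.19 within the second, and 0.68 ± 0.38 over both (SE, n = 3 per group). The log2 ratio of Itga5 to Fn1 signal was -3.51, -3.22 and -3.88 on diabetic arrays and -3.78, -3.90 and -4.50 on control arrays. Here the diabetic arrays lay above the control arrays of each table, with changes of 0.48 and 0.62 and 0.52 ± 0.11 over both, which became 0.30 at the largest pseudocount tried. Both ratios carry the difference between groups for which Itga5 was chosen, so they and their SEs are given as a description. They hold for these probe sets only, and their levels are not compared between genes. The SEs of the ratios come from an ordinary linear model with 3 residual degrees of freedom. They are therefore not on the footing of the limma SEs given for single genes.

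**Figure D3:**
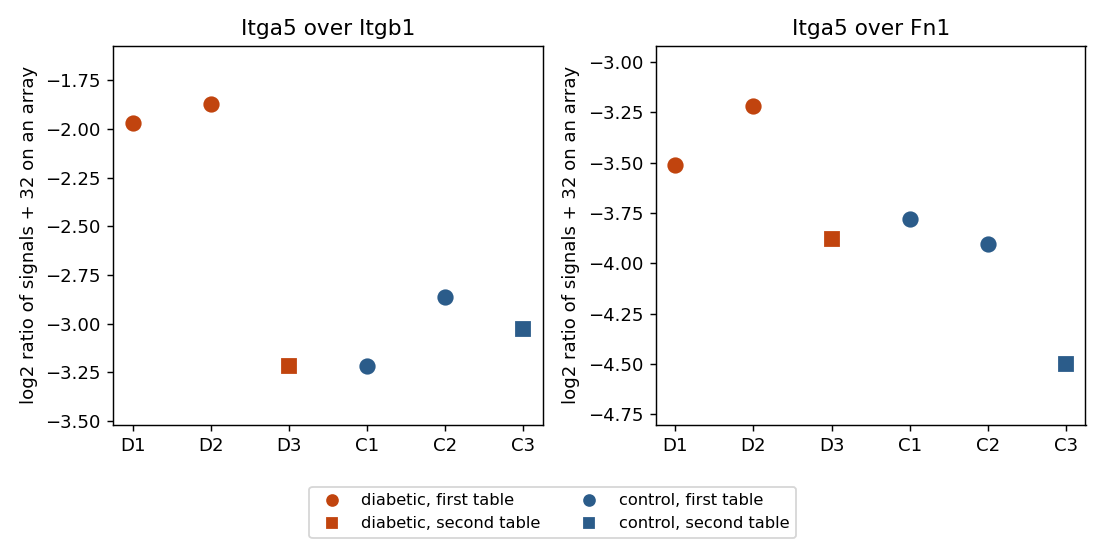
Log2 ratio of Itga5 to Itgb1 signal (left) and of Itga5 to Fn1 signal (right), with 32 added to each signal, on diabetic replicates D1 to D3 and control replicates C1 to C3, circles for the first table and squares for the second. The ratio to Itgb1 is higher on diabetic arrays in the first table alone, and the ratio to Fn1 is higher on diabetic arrays in both tables.

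Likeness to Itga5 over the 6 arrays takes in the difference between groups for which Itga5 was chosen, so it is given as a description. The 5 genes most like Itga5 were sought among the 8626 other genes tested, of which only 9 belong to the group described. By the mean absolute difference of log2 values centred on each table, they were St3gal5, an enzyme of ganglioside synthesis, with 0.054, Chtf18, which loads the replication clamp, with 0.059, Slc27a1, a fatty acid transporter, with 0.063, Cenpb, a centromere protein, with 0.069, and Lrrc8c, a subunit of volume-regulated anion channels, with 0.073. St3gal5 had signals of 463, 507 and 308 on diabetic and 231, 306 and 230 on control arrays. Among the other 9 genes Fn1 was nearest, at rank 1100 of 8626 with 0.26, while Itgb1 stood at rank 5324 and Lamb1 at rank 8124.

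Of 20 further integrin subunits, 15 were named by a probe set and 3 reached a mean signal of 100. Itga2b, the platelet subunit, had signals of 350, 396 and 269 on diabetic and 374, 300 and 146 on control arrays, and its log2 change was 0.35 ± 0.18 (SE, 3 arrays per group). Itga8, which binds nephronectin, had 0.26 ± 0.18, and Itga9, which binds tenascin C, had -0.32 ± 0.20, with 363, 277 and 223 on diabetic and 504, 308 and 299 on control arrays. The groups overlapped for all 3 within the first table. Of the further laminin chains, 5 of 7 were tested, 2 above and 3 below 0 with a median of -0.016. Lama2, the chain of muscle and peripheral nerve laminins, had 115, 117 and 144 on diabetic and 181, 173 and 152 on control arrays, a change of -0.35 ± 0.16, with the diabetic arrays below the control arrays of both tables. Lama1 had 0.093 ± 0.15, Lamb2 0.21 ± 0.18, Lama4, a chain of vessel laminins, -0.21 ± 0.20 and Lamc3 -0.016 ± 0.23. Lama4 had no overlap in either table but changed sides, with -0.51 and then 0.40. The median of the 5 chains was -0.24 with the first table alone and 0.40 with the second.

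The proteins that join laminin into basement membranes gave 4 genes above and 7 below 0, with a median of -0.042 against 0.012 over all genes. The median was 0.12 in the first table alone and so has no settled sign. Hspg2, which encodes perlecan, the heparan sulfate proteoglycan of basement membranes, had the highest value, 0.61 ± 0.16 (SE, 3 arrays per group). The array signals were 1661, 1416 and 403 on diabetic and 963, 1116 and 230 on control arrays, above the controls of each table as for Itga5. Col4a5, a collagen IV chain, had the lowest, -0.20 ± 0.17. Diabetic arrays lay above the control arrays of each table for 2 of the 11 genes (background 11.3%), Hspg2 and Bcam, a laminin receptor outside the integrin family that was named after its values were seen.

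The other extracellular ligands of integrins lay mostly below 0, 14 of 18 genes with a median of -0.16, and the diabetic arrays were below the control arrays of each table for 6 of 18 against a background of 10.6%. Vcam1, an adhesion protein bound by integrins of leukocytes, had the lowest value, with signals of 439, 346 and 609 on diabetic and 845, 608 and 658 on control arrays and a log2 change equal to -0.59 ± 0.21 (SE, n = 3 per group). Tgm2, a transglutaminase that cross-links matrix and binds fibronectin, had the highest, 0.47 ± 0.18, with 193, 266 and 135 on diabetic and 183, 144 and 79.5 on control arrays. Adjusted over all genes, 0 of the 18 passed in limma, and without diabetic replicate 2 the median was -0.051. Markers of mesenchyme and meninges were below 0 for 12 of 12 genes, 1 of which, Postn, is also among the 18 ligands, and the part of such cells in these values was not tested.

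Inside the cell, genes of focal adhesions and integrin activation were balanced, 17 above and 17 below 0, with a median of 0.0028. That median was 0.088 in the first table alone and -0.099 in the second. Parvg, a parvin that binds integrin-linked kinase, had the highest value, 0.39 ± 0.15 (SE, n = 3 per group), and Enah, an actin regulator of the Ena and VASP family, the lowest, -0.54 ± 0.24. Diabetic arrays lay above the control arrays of each table for 3 of 34 genes and below for 3, against 11.3% and 10.6% of all genes. Membrane co-receptors and tetraspanins had 6 above and 5 below 0 and a median of 0.014. Its sign turned under 7 of 11 alternatives, down to -0.096 without control replicate 1, and in the second table alone it was -0.10. Plaur, the urokinase receptor, had 0.33 ± 0.17 and Sdc2, a syndecan, had -0.45 ± 0.26. In limma 0 genes of these lists passed the adjustment.

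**Figure D4:**
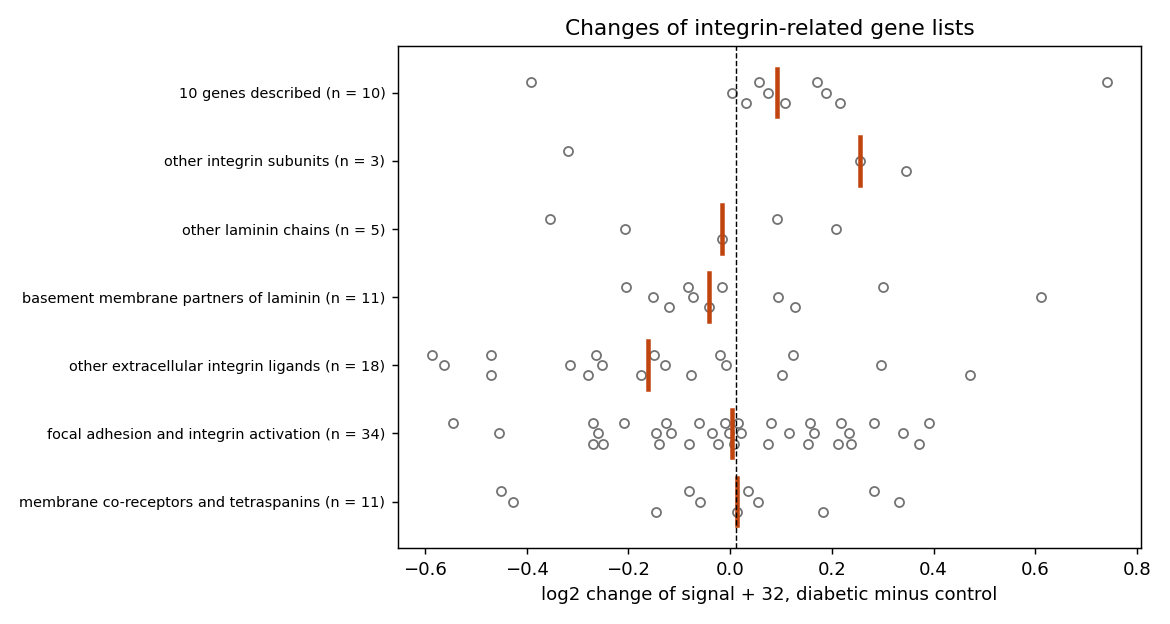
Log2 change of signal + 32, diabetic minus control, for each tested gene of the 10 described and of 6 related lists (circles), with the median of each list (bar) and of all genes (dashed line, 0.012). The median of the other extracellular ligands is -0.16, and those of the focal adhesion list and the co-receptors lie within 0.015 of 0.

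Markers of the cell types that the samples could hold are given beside these values, and in such whole brains fewer cells of a type and less RNA per cell cannot be told apart. For mesenchyme and meninges, 12 of 12 markers were below 0, and their summed signal was 12455 to 15706 on diabetic and 15396 to 18785 on control arrays, with diabetic over control ratios of 0.827 and 0.836 in the 2 tables. By table the markers were not all lower: Twist1 was above 0 in the first (0.022), and Lum (0.65), Dcn (0.41) and Pdgfra (0.014) in the second. Endothelial markers had 6 of 11 above 0, summed signals of 3232 to 3734 on diabetic and 2492 to 4075 on control arrays, and ratios of 0.944 and 1.30. Itgb1 and the endothelial, neuron and macrophage sums were each lower on diabetic arrays in the first table and higher in the second. A link of any of these sums to Itgb1 was not tested. Pericyte markers had 2 of 5 above 0, sums of 1887 to 3267 on diabetic and 2591 to 3047 on control arrays, and ratios of 1.06 and 0.728. Neuron markers had 1 of 10 above 0, sums of 8276 to 18301 on diabetic and 14736 to 16271 on control arrays, and ratios of 0.673 and 1.13. Progenitor markers had 6 of 9 above 0, sums of 25673 to 26116 on diabetic and 20554 to 26127 on control arrays, and ratios of 1.11 and 1.08. The highest of these sums was on control replicate 2, and Vim alone gave 14441 of the 25673 on diabetic replicate 1.

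Of the cells outside the neural tube and its vessels, surface epithelium had 4 of 9 markers above 0, with sums of 1996 to 3405 on diabetic and 2178 to 3067 on control arrays and ratios of 1.08 and 0.916. Erythroid cells had 6 of 9 above 0, with sums of 49875 to 57609 on diabetic and 43538 to 52450 on control arrays. The ratios were 1.12 and 1.05, again above 1 in both tables. The globin genes Hbb-bh1, Hba-x and Hbb-y gave most of these sums, with 15974, 16831 and 13563 of the 49875 on diabetic replicate 1. By table, the median log2 change of the erythroid markers was -0.090 and then 0.39, so it changed sign. Macrophages had 2 of 5 above 0, with sums of 975 to 1307 on diabetic and 952 to 1582 on control arrays and ratios of 0.737 and 1.03. Muscle had 0 of 3 above 0, with sums of 460 to 684 on diabetic and 541 to 1674 on control arrays and ratios of 0.566 and 0.849. No gene of these lists was at 0 on any array, but signals could be as low as 2.04, for Myf5 on diabetic replicate 3. A signal above 0 does not show that a gene was detected, and no detection calls were at hand. Among the defining markers Krt5, of surface epithelium, had 51.8 to 86.9 on diabetic and 82.2 to 188 on control arrays. Myog, of muscle, had 22.6 to 62.1 on diabetic and 59.9 to 130 on control arrays. The part of any of these cell types in the values of the 10 genes was not tested.

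**Figure D5:**
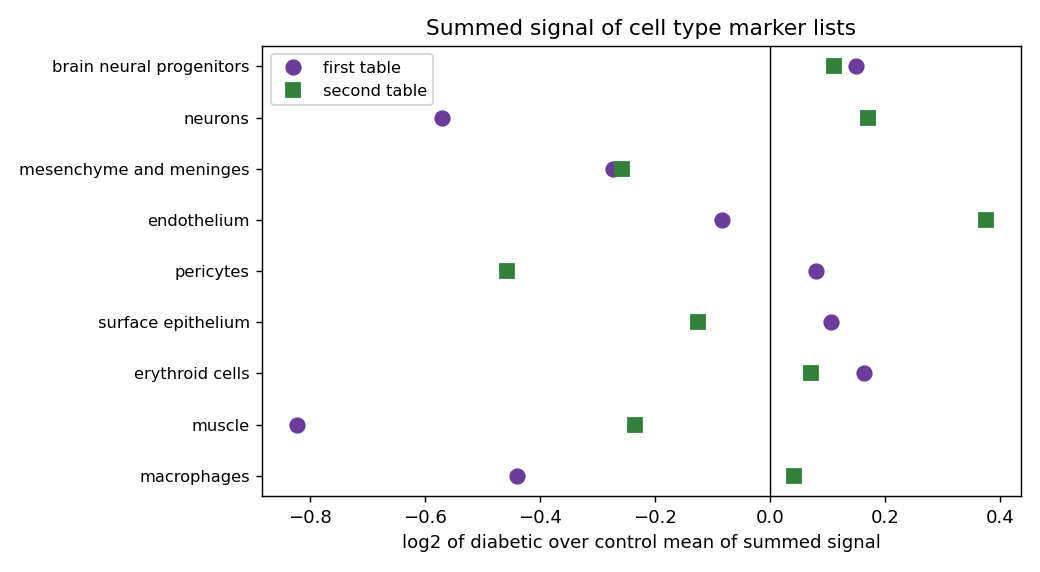
Log2 of the diabetic over control ratio of the summed signal of 9 cell type marker lists, circles for the first table and squares for the second. Mesenchyme and meninges lie below 0 in both tables, at ratios of 0.827 and 0.836, and the endothelial and neuronal sums lie on opposite sides of 0 in the 2 tables.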

How the data were processed

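The authors deposited linear intensity values, 1 per probe set and array, in 2 tables of 22690 probe sets. The submitters' processing notes name GCOS, with version and settings not given in the sources used here. Chip types are given per the file headers. Each array was scaled so that its trimmed mean was 500 (2% removed at each end, a shift of at most 0.0363%), and log2(signal + 32) was taken, which understates changes of low signals. The probe set with the highest average log2 signal stood for a gene, and genes averaging a signal of 100 or more were fitted with limma 3.58.1 in R 4.3.3, two-sided, with the table as a block and Benjamini-Hochberg adjustment over 8627 genes. With 3 residual and 6.48 prior degrees of freedom, the median SE was 0.17, and precision is limited by how few arrays there are. The test was checked on simulated data. The members and lists were chosen with earlier results of these data known. Named genes were the 10 members, every tested further integrin and laminin chain, the highest and lowest gene of each other related list, and the 5 genes most like Itga5. Alternatives were other pseudocounts, quantile normalization, replicate block, array weights, each table, each array left out, the mean of probe sets and other signal limits.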

Additional observations from a re-analysis of the deposited data

How the results depend on the processing

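Leaving out either array of the second table equals the first table alone, and the replicate block leaves a change as it is, so 11 alternatives of 14 count as distinct. Under these 11 Itga5 kept a log2 change above 0, between 0.47 in the second table alone and 0.87 in the first, and Lamb1 one below 0, between -0.52 and -0.14. Opposite signs to the value reported appeared for Itga3 and Itgb5 under 4, Itgb1 and Lamc1 under 3, Itga6 under 2, and Itgav, Fn1 and Lama5 under 1 each. Itgb1 had -0.25 without either array of the second table. Itga5 minus Fn1 stayed above 0 under all 11, with 0.30 at the largest pseudocount tried, and Itga5 minus Itgb1 under 10 of 11, with -0.19 in the second table alone; as single arrays were left out they ran from 0.46 to 0.62 and from 0.46 to 1.12. For list medians, the 11 hold the fit without a signal limit in place of the second table alone. List medians turned sign under 7 of 11 for co-receptors, 5 for laminin chains and 2 each for basement membrane partners and focal adhesion genes, and under 0 for extracellular ligands. In the second table alone the sign was also opposite for laminin chains (0.40), focal adhesion genes (-0.099) and co-receptors (-0.10). The cause was not tested. With the replicate number as a block the changes were unaltered by construction (0.68 for Itga5 minus Itgb1 and 0.52 for Itga5 minus Fn1), limma called 0 genes and 627 had an unadjusted p under 0.05. The labels do not say that numbers pair brains, and the deviations of control and diabetic replicate 1 correlated at -0.0091 across genes. Limma called 0 genes under every alternative with a test, with 414 (without control replicate 1) to 883 (array weights) at an unadjusted p under 0.05. Low signals, such as those of Itga5 in the second table, depend most on the pseudocount.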
